A study of Mus musculus with 2 samples.

Results

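The miR-26 family comprised 5 of the 1477 mature miRNA names counted in RNA that was captured with biotin-labelled proteins from mouse keratinocytes. The 5 names were taken by name and not by their counts: mmu-miR-26a-5p, mmu-miR-26b-5p, mmu-miR-26b-3p, mmu-miR-26a-1-3p and mmu-miR-26a-2-3p. All 5 were found in each library, and the tables held 0 other names that begin with miR-26. The 2 libraries form 1 group, replicates 1 and 2 of a streptavidin pulldown. Skin keratinocytes in low calcium culture carried Dsp-BirA, desmoplakin joined to the biotin ligase BirA and expressed exogenously, and biotin was added. Desmoplakin sits at the desmosomal plaque, the part of an epithelial cell junction that ties it to the keratin filaments, and the capture was meant to recover the Argonaute proteins found there with their RNA. No library without the fusion, without biotin or of total RNA was analysed here, so a count describes what was recovered and gives no enrichment at the junction. Whether the replicates came from separate cultures is not stated, and the spread between them may be technical.

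A miRNA is cut from a hairpin whose arms give a 5p and a 3p strand, and an Argonaute protein usually keeps one of them. The strand that is kept pairs with target mRNAs through its seed, bases 2 to 8 from the 5' end, and lowers their translation and stability. The miR-26 genes are conserved in vertebrates and are known to lie within introns of the Ctdsp genes, which encode small phosphatases that act on the C-terminal domain of RNA polymerase II. miR-26 is known as a restraint on growth and on the G1 to S step of the cell cycle in many tissues, and the histone methyltransferase gene Ezh2 is among its best studied targets.

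The mature strands are shown because their letters decide which counts can be traced to a gene. They are RefSeq sequences on the GRCm38.p6 assembly, written 5' to 3' with the seed in capitals.
miR-26a-5p: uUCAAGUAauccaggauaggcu
miR-26b-5p: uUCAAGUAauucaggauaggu
miR-26a-1-3p: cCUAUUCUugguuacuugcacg
miR-26a-2-3p: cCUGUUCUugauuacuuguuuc
miR-26b-3p: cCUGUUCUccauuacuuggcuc

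The 5p strands share the seed UCAAGUA. Counted from 1 at the 5' end of miR-26a-5p and compared without gaps, miR-26b-5p matched it at 19 of 21 bases and differed by C11U and C21U. It is 21 bases long and miR-26a-5p is 22. miR-26a-5p has the same letters in Mir26a-1 and Mir26a-2, so its counts cannot be divided between these genes. The 3p strands, each of 22 bases, do separate all 3 genes. miR-26a-2-3p and miR-26b-3p share the seed CUGUUCU and matched at 18 of 22 bases, while miR-26a-1-3p carries CUAUUCU, a change of G4A from the others. It matched miR-26a-2-3p at 16 bases and miR-26b-3p at 14.

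Each hairpin gene lay inside a Ctdsp gene and on its strand in the RefSeq annotation of GRCm38.p6. Mir26a-1 lies at chr9:119031796-119031885 on the plus strand, 105260 bases from the start of Ctdspl (chr9:118926536-119044119). Mir26a-2 lies at chr10:126995530-126995613, plus strand, 16813 bases into Ctdsp2 (chr10:126978717-126999975). Mir26b lies at chr1:74394310-74394394, plus strand, 2701 bases into Ctdsp1 (chr1:74391609-74397285). The gene table used gives no exons, so the intron was not read from it. Ctdsp2 holds another miRNA gene, Mir546, whose mature name miR-546 had 0 counts in both libraries, and a count of 0 allows a level of at most 0.794 CPM (replicate 1) or 0.728 CPM (replicate 2).

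The hairpins are shown next, with the mature strands in capitals, since the loci differ mainly outside the 5p strand.
Mir26a-1: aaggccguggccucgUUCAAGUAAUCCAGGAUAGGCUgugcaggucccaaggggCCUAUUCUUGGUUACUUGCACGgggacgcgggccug
Mir26a-2: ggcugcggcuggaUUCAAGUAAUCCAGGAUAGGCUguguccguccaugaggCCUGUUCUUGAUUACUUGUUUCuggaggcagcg
Mir26b: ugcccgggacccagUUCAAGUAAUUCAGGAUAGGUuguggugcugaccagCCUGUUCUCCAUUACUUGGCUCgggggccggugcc

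The terminal stretch between the mature strands is 17 bases in Mir26a-1, 16 in Mir26a-2 and 15 in Mir26b. In structures predicted from these letters, 18 base pairs joined the strands of Mir26a-1, 17 those of Mir26a-2 and 17 those of Mir26b. The predicted folding energies were -49.4 kcal/mol for Mir26a-1, -44.5 for Mir26a-2 and -43.5 for Mir26b. These are predictions of the whole hairpin and not measurements.

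Replicate 1 held 3776893 miRNA counts and replicate 2 held 4122955. Levels are given as CPM, counts per 1000000 miRNA counts of the library. The strands are 21 or 22 bases long, so their counts are compared without a correction for length. Ligation and PCR can favour one sequence over another, and without molecular identifiers the 95% intervals below cover counting error only. The keratinocyte miRNAs miR-205-5p (127055 and 133359 counts in replicates 1 and 2) and miR-203-3p (16417 and 18470) were abundant, whereas the blood cell miRNA miR-142-3p had 15 and 0 counts and miR-142-5p had 0 and 16. Not every name known from other cell types was this rare, since miR-126a-3p had 1308 and 1093 counts. These few names do not settle whether other cells were present.

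Together the 5 names took 1.43% of the counts of replicate 1 (Wilson 95% interval 1.42% to 1.44%) and, of those of replicate 2, 1.36% (1.35% to 1.37%), a mean of 13933 ± 510 CPM (SD, n = 2). Most of it was miR-26a-5p. This strand had 46073 counts in replicate 1 and 47872 in replicate 2, or 12199 and 11611 CPM. Its mean of 11905 ± 415 CPM (SD, n = 2) placed it 20 among all names, at 19 in replicate 1 and 21 in replicate 2.

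miR-26b-5p, with the same seed, had 7681 counts in replicate 1 and 7821 in replicate 2, or 2034 and 1897 CPM. Its mean was 1965 ± 96.7 CPM (SD, n = 2), rank 65. Of the counts carrying the UCAAGUA seed, 85.7% were miR-26a-5p in replicate 1 (Wilson 95% interval 85.4% to 86.0%), as were 86.0% in replicate 2 (85.7% to 86.2%). miR-26a-5p had 5.998 times the counts of miR-26b-5p in replicate 1 (exact 95% interval 5.86 to 6.15) and 6.12 times in replicate 2 (5.98 to 6.27). The intervals overlap, and the mean ratio of 6.06 ± 0.0867 (SD, n = 2) lay far from 1 against the spread between the libraries. With 2 libraries an exact sign-flip test cannot give a p-value below 0.5, so no test is attached. How reads that fit both strands were assigned is not stated, and a read that ends before base 21 differs between them at base 11 alone.

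The 3p strands were far rarer. miR-26b-3p was the most abundant of them, with 176 counts in replicate 1 and 232 in replicate 2, or 46.6 and 56.3 CPM (mean 51.4 ± 6.84, SD, n = 2). It ranked 292. miR-26a-1-3p had 54 counts and 34, or 14.3 and 8.25 CPM (mean 11.3 ± 4.28), and ranked 494. miR-26a-2-3p had 2 counts and 1. Both of its counts lie below the 3 that a count of 0 allows, so its level is not read beyond being near the floor at this depth.

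**Figure D1:**
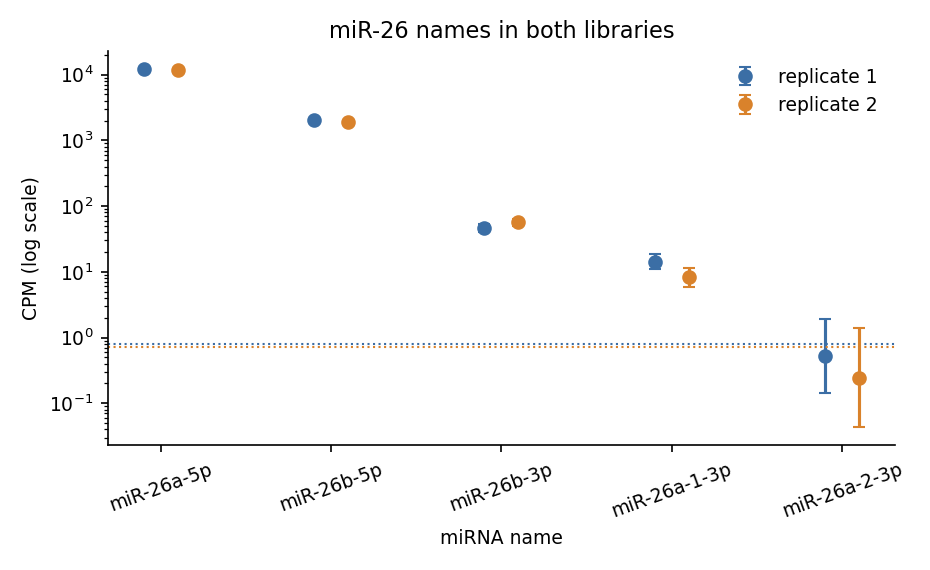
Level of each miR-26 name in CPM on a log axis, for replicate 1 (blue) and replicate 2 (orange). Points are single libraries, bars are Wilson 95% intervals, and dotted lines mark the level of 3 counts in each library. The 5p strands lie at 1897 CPM or above in both libraries, the 3p strands at 56.3 CPM or below, and miR-26a-2-3p lies under the dotted lines.

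The order of the 5p and 3p strands was thus not the same. On the 5p side miR-26a exceeded miR-26b, and on the 3p side miR-26b exceeded miR-26a. miR-26b-3p had 3.14 times the summed counts of the miR-26a 3p strands in replicate 1 (exact 95% interval 2.31 to 4.33) and 6.63 times in replicate 2 (4.63 to 9.75). The direction was the same in both libraries, but the size was not settled: the intervals do not overlap, and the mean of 4.89 had an SD of 2.46 (n = 2).

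The same counts can be read within each miRNA. The 3p strands gave 0.121% of the counts of miR-26a in replicate 1 (56 of 46129 counts, Wilson 95% interval 0.0935% to 0.158%) and 0.0731% in replicate 2 (35 of 47907, 0.0525% to 0.102%). The 3p strand gave 2.24% of the counts of miR-26b in replicate 1 (176 of 7857, 1.94% to 2.59%) and 2.88% in replicate 2 (232 of 8053, 2.54% to 3.27%). No interval of miR-26a reached one of miR-26b. The 3p share of miR-26b was 18.5 times that of miR-26a in replicate 1 and 39.4 times in replicate 2, a mean of 28.9 ± 14.8 (SD, n = 2). The share of miR-26a rests on 56 counts in replicate 1 and 35 in replicate 2, which limits the precision of this ratio.

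**Figure D2:**
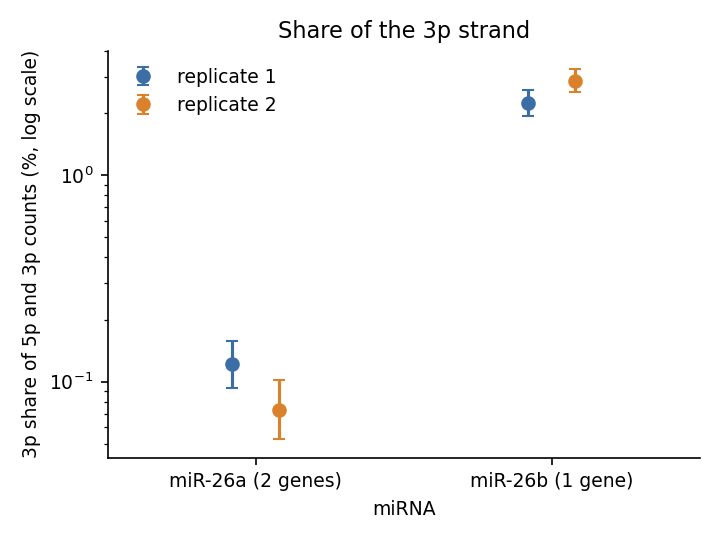
Share of the 3p strand in the 5p and 3p counts of miR-26a and miR-26b, in percent on a log axis, with the 3p strands of both miR-26a genes summed. Points are single libraries (replicate 1 blue, replicate 2 orange) and bars are Wilson 95% intervals. Shares of miR-26a lie at 0.121% and 0.0731%, those of miR-26b at 2.24% and 2.88%.

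Dominance of the 5p strand is common in these libraries. It was read over the 184 hairpins, or sets of hairpins with a common strand, that reached 100 counts in each library and had a name for each arm. Of these, 59.2% had more 5p than 3p counts in both libraries with an adjusted p-value under 0.05 in each (exact binomial test on reads, Benjamini-Hochberg adjustment over all 184). miR-26a and miR-26b were both among these 109. The share of the lesser arm had a median of 4.72% over the 184. miR-26b, with a mean of 2.56%, had 75 below it and 108 above it, close to the middle of the order. miR-26a, with a mean of 0.0972%, had 12 below it and 171 above it. Hairpins with no count of an arm in either library were left out, so the median and these places hold among the 184 only. The test compares reads within a library and not conditions.

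Between the genes of miR-26a, the recovered 3p strands came almost wholly under the name of Mir26a-1, the gene in Ctdspl. miR-26a-1-3p made up 54 of 56 counts in replicate 1 (96.4%, Wilson 95% interval 87.9% to 99.02%) and 34 of 35 in replicate 2 (97.1%, 85.5% to 99.5%). Its counts were 27.0 times those of miR-26a-2-3p in replicate 1, with an exact 95% interval of 7.12 to 229, and 34.0 times in replicate 2, with one of 5.70 to 1382. The width of these intervals comes from the 2 counts and 1 count of miR-26a-2-3p. The share describes 3p strands only. It was not carried over to miR-26a-5p, since the 5p output of a gene was not measured apart from that of the other.

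The same share was taken for other miRNAs whose genes are told apart by a strand named -1- or -2-. With at least 10 counts over the pair in each library, 14 pairs besides miR-26a could be compared. A single strand held a larger mean share than in miR-26a in 4 of them and a smaller one in 10, and the median over all 15 pairs was 93.9%. The pairs with the most counts were the 5p strands of miR-24 and the 3p strands of miR-125b. For miR-24, the strand named -1- held 23.1% in replicate 1 and 30.3% in replicate 2. For miR-125b, it held 1 of 781 counts in replicate 1 and 0 of 865 in replicate 2, which allows a share of up to 0.347%. The more abundant strand changed between the libraries in 3 of the 15 pairs, those of let-7f, miR-128 and miR-196a. The pair of miR-128 had 0 and 34 counts in replicate 1 and 20 and 0 in replicate 2. In let-7f, with more counts, the strand named -1- held 59.8% in replicate 1 and 31.7% in replicate 2. Why these shares turned over was not tested. For miR-26a the more abundant strand was the same in both libraries, with miR-26a-2-3p at 2 counts and 1.

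**Figure D3:**
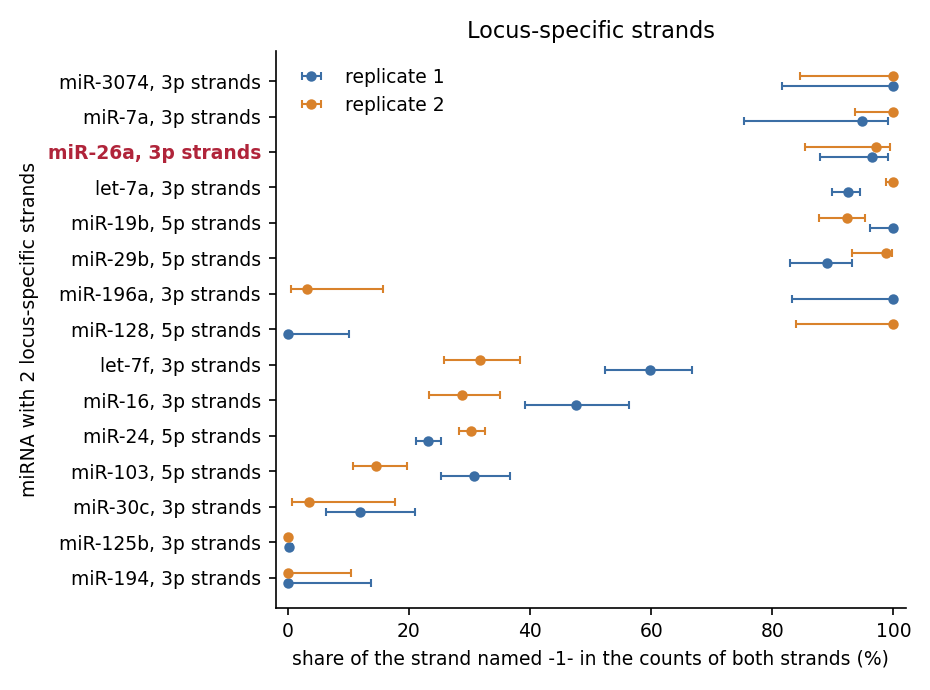
Share of the strand named -1- in the counts of a pair of locus-specific strands, for the 15 pairs with at least 10 counts in each library, ordered by their mean. Points are single libraries (replicate 1 blue, replicate 2 orange) and bars are Wilson 95% intervals. Both points of miR-26a (red label) lie above 96%, while those of miR-128 and miR-196a lie at opposite ends.

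The seeds place these strands beside other names. A sequence was matched to 1231 of the 1477 names, and names without one, which held 9.79% of the counts of replicate 1 and 12.03% of replicate 2, stay outside any sum by seed. Over 1051 seeds, UCAAGUA ranked 18 with 13870 ± 512 CPM (SD, n = 2), and miR-26a-5p and miR-26b-5p were the only matched names to carry it. This rank holds among matched names only. miR-5099, which was not matched, had 57754 counts in replicate 1 and 151461 in replicate 2, against 53754 and 55693 for UCAAGUA. The closest seeds by summed level were those of miR-31-3p (14271 ± 239 CPM), miR-2137 (14065 ± 2000) and miR-484 (13401 ± 729). Each gap in this order was smaller than the larger SD of the pair, although in both libraries the seed of miR-31-3p was above UCAAGUA and that of miR-484 below it. The seed of miR-2137 was above UCAAGUA in replicate 1 and below it in replicate 2. The seed CUAUUCU of miR-26a-1-3p occurred in no other matched name.

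The seed CUGUUCU of miR-26b-3p and miR-26a-2-3p is carried by a pair of other names, which are printed because they draw on the same seed from unrelated hairpins, with the seed in capitals.
miR-6932-3p: uCUGUUCUgcuuccucugcag
miR-7039-3p: cCUGUUCUgcccucccuuccag
They match miR-26b-3p at 11 of 21 and 13 of 22 bases. miR-6932-3p, from chr11:107637759-107637779 on the plus strand of GRCm38.p6, had 0 counts in replicate 1 and 42 in replicate 2. miR-7039-3p, from chr5:144896732-144896753 on the minus strand, had 8 and 65. With its 176 and 232 counts, miR-26b-3p was the most abundant carrier of CUGUUCU in both libraries. The names from other hairpins were higher in replicate 2 than in replicate 1, where miR-6932-3p was at 0.

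Next to other single names, miR-26a-5p was not separable from its neighbours in rank. miR-183-5p stood just above it (12051 ± 240 CPM) and miR-27b-3p just below (11796 ± 278). In replicate 1 miR-26a-5p exceeded both, and in replicate 2 it was below both. By distance in log2 CPM over the 2 libraries, the closest names were miR-429-3p (0.078), miR-183-5p (0.083) and miR-27b-3p (0.086). For miR-26b-5p they were miR-135b-5p (0.050), miR-15a-5p (0.086) and let-7d-5p (0.098). With 2 libraries of 1 condition this distance describes similar level and nothing more.

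miR-26b-5p stood below miR-92a-3p (2291 ± 74.7 CPM), which was higher in both libraries. It stood above miR-107-3p, whose 1230 CPM in replicate 1 and 2643 CPM in replicate 2 lie on either side of it. miR-26b-3p lay between miR-466m-3p (199 and 214 counts) and miR-467f (236 and 166 counts). miR-26a-1-3p lay between miR-7688-5p (27 and 64 counts) and miR-505-5p (63 and 24 counts). miR-26a-2-3p followed miR-8118 (3 and 0 counts) and shared its place with miR-3073b-5p, which had the same 2 counts and 1.

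The libraries could also be compared with each other, name by name. miR-26a-5p and miR-26b-5p were both slightly lower in replicate 2, with log2 ratios of replicate 2 over replicate 1 of -0.071 (exact 95% interval -0.09 to -0.053) and -0.10 (-0.15 to -0.055). miR-26a-1-3p was lower too, with -0.79 (-1.46 to -0.15). miR-26b-3p had 0.27 (-0.017 to 0.56), so that its interval includes no difference. miR-26a-2-3p, with a mean of 1.5 counts, was below the minimum of a mean of 10 counts.

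In the exact two-sided binomial test on reads, with Benjamini-Hochberg adjustment over the 1002 names tested, 3 of the 4 members tested passed an adjusted p-value of 0.05, all 3 lower in replicate 2. The background was 70.6% of all names in either direction, 36.2% higher and 34.3% lower, so such a call is ordinary in these libraries. The adjusted p-values of this exact test were 3.5e-13 for miR-26a-5p, 3.26e-05 for miR-26b-5p, 0.0205 for miR-26a-1-3p and 0.0816 for miR-26b-3p. They depend on how many reads were counted as well as on the size of the difference. Of 14 names within 1.5 times the mean count of miR-26a-5p, 9 differed less between the libraries, and 5 as much or more. For miR-26b-5p these were 15 and 14 of 29 names, for miR-26b-3p 16 and 49 of 65, and for miR-26a-1-3p 75 and 123 of 198. Among names of like abundance, miR-26b-3p and miR-26a-1-3p therefore varied less than most. miR-26a-5p varied more than most of its 14, and miR-26b-5p about as much as its 29. Between these libraries the variance of a count was on average 20.7 times what counting error gives, taken over names averaging 10 to 300 counts. After division of all counts by that number, none of the 4 passed in the exact test (adjusted p = 1 for each), and 16 of all names did. The 5p strands average far more than 300 counts, so the number was not estimated at their abundance. For miR-26b-3p and miR-26a-1-3p the division leaves too few counts for the test to decide.

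**Figure D4:**
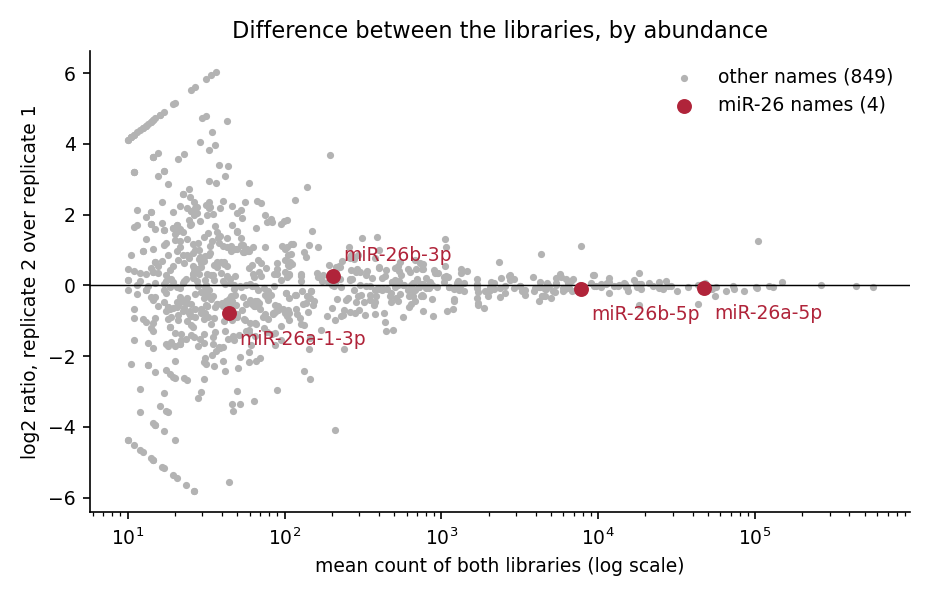
Log2 ratio of replicate 2 over replicate 1 against the mean count on a log axis, for 849 other names (grey) and the 4 miR-26 names tested (red). Another 149 names with 0 counts in a library have no ratio and are not drawn. The miR-26 names lie at -0.071 and -0.10 for the 5p strands, 0.27 for miR-26b-3p and -0.79 for miR-26a-1-3p, inside the cloud of names of like abundance.

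Other miRNAs known to restrain the G1 to S step gave a scale for these levels. Of 20 such names, among them let-7, miR-15, miR-16, miR-29 and miR-34 strands, 3 were more abundant than miR-26a-5p: miR-16-5p (111712 ± 1004 CPM), let-7c-5p (16680 ± 1345) and miR-29a-3p (12921 ± 295). Another 7 lay between miR-26a-5p and miR-26b-5p, and 10 lay below miR-26b-5p. miR-34a-5p, from a gene that p53 activates, had 1156 ± 61.1 CPM, below miR-26b-5p in both libraries. In the same exact test between libraries, 3 of the 19 names tested were higher in replicate 2, 11 were lower and 5 did not pass, beside a background of 36.2% higher and 34.3% lower over the 1002 names. Their median log2 ratio was -0.074, beside -0.014 over the 853 names tested that had counts in both libraries. Neither background was matched to the list in abundance, and many listed names are let-7 strands of similar sequence. No shift of the list was read from these values.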

How the data were processed

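Small RNA from 2 streptavidin pulldowns of 1 group was analysed. Each deposited table, 1 per library, lists mature miRNAs with raw counts, all whole numbers from 1 up and not normalised. cutadapt, Novoalign and the mm10 build are named in the submitters' processing notes. The miRNA reference, the counting rule, the handling of PCR copies and whether chimeric reads were counted apart are not given in the sources used here. A name missing from a table was set to 0. Rows without a miRNA name (0.00265% and 0.000218% of counts) were left out.

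CPM, ratios and shares were computed per library, with SD over the libraries and Wilson or exact 95% intervals. The libraries were compared by an exact binomial test over names averaging 10 counts or more, adjusted over all of them. On simulated counts for 1002 names with 200 changed 2-fold, it recovered 64.0% of the changed names, and 5.88% of its calls were false. The simulated counts varied by counting error only. The libraries varied more than that, so the 5.88% does not describe the calls made between them. Alternatives used TMM factors (edgeR 4.0.16), DESeq2 1.42.0 size factors (R 4.3.3), other totals, minimums and thresholds, added counts, pooling, and each library alone. Hairpins were folded with ViennaRNA 2.7.2, and other steps used Python 3.11.15, numpy 2.4.6, pandas 2.3.3, scipy 1.17.1 and matplotlib 3.10.9. Sequences and positions are from RefSeq tables of GRCm38.p6, the assembly that mm10 denotes.

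Besides the members, the rule named every carrier of a member's seed, the 3 names closest in log2 CPM to each 5p strand, the neighbours in rank, the 2 locus pairs with the most counts, and the 3 seeds closest in level. The G1 to S list came from general knowledge. The members and lists were chosen with earlier results of these data known. Names outside these were chosen after their values were seen.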

Additional observations from a re-analysis of the deposited data

How the results depend on the processing

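The ratio of miR-26a-5p to miR-26b-5p and the 5p share moved by no more than 1 SD with counts pooled, with the deeper library drawn down and with 0.5 counts added. The family level was 16243 CPM with miR-31-5p left out of the total and 15382 CPM without names numbered 2000 and above, which follows from the smaller totals. The share of miR-26a-1-3p was 95.7% with 0.5 counts added. Each library alone, which with 2 libraries is no check of stability, gave 13573 to 14294 CPM for the family, 5.998 to 6.12 for the 5p ratio, 99.52% to 99.57% for the 5p share and 96.4% to 97.1% for the miR-26a-1-3p share. The number of names that differed between the libraries was 707 of the 1002 tested in the main setting. It was 254 in the smaller set averaging 100 counts or more, 441 with a 2-fold minimum and 16 with divided counts. The 254 is thus not a share of the 1002. At an adjusted p-value of 0.01, miR-26a-1-3p no longer passed the exact test, and with the 2-fold minimum none of the 3 called members did. No paired analysis was possible because both libraries belong to the same group. Depth limits the 3p strands of miR-26a, at 91 counts in all.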
